A study of Mus musculus with 19 samples.

Results

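The mitochondrial ribosomal protein genes are the nuclear genes for the proteins of the mitochondrial ribosome. Here they were the protein-coding genes of the expression table whose symbol is Mrpl or Mrps, a number and at most 1 letter. The rule found 78 genes of the 24237 in the table, 49 with an Mrpl symbol and 29 with an Mrps symbol. The rule reads symbols and gene type and no expression value. Their mRNA was measured in epididymal white adipose tissue (eWAT) of male C57BL6/J mice by RNA sequencing of 1 library per mouse. The mice were 9 to 10 weeks old at the start and were fed for 17 weeks a diet with 10% (LFD, low-fat) or 60% (HFD, high-fat) of its energy from palm oil, with 0.21% (NormMg) or 0.03% (LowMg) MgO by weight. There were 4 mice in NormMg-LFD and 5 in each of LowMg-LFD, NormMg-HFD and LowMg-HFD, all of the same strain, and no transgene is named in the labels. The comparisons ask what low dietary Mg2+ does on either fat level, what dietary fat does on either Mg2+ level, and whether these effects depend on each other.

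The mitochondrial ribosome translates the few mRNAs that the mitochondrial genome still encodes, all of them for membrane subunits of the respiratory chain and the ATP synthase. Its ribosomal RNAs are made inside the organelle, whereas each of its proteins is made in the cytosol and imported. The small subunit holds the mRNA and reads its codons, and the large subunit joins the amino acids and feeds the product to the inner membrane. Some of the proteins have bacterial homologues and others were acquired in the mitochondrial line. Symbols do not always show the place of a protein. Mrps30 and Mrps18a sit in the large subunit of solved structures, and the product of Mrps36 is a component of the 2-oxoglutarate dehydrogenase complex and not a ribosomal protein. By such structural knowledge the 78 genes were divided into 51 for the large subunit (29 with a bacterial homologue, 22 mitochondrial), 26 for the small subunit (16 and 10) and Mrps36. Mrps18a and Mrps18b, paralogues related to bacterial S18, were counted in the mitochondrial classes.

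The libraries held 12986441 to 13027028 reads, of which 86.12% to 90.41% were mapped. Expression was given as FPKM, read numbers scaled by transcript length and library size, so that levels of different genes could be compared per length. Adipocyte markers were expressed in every mouse, with Adipoq, the adiponectin gene, at 1070 FPKM or above. Some libraries stood apart by markers of other organs. The summed level of 10 testis markers was 3907 FPKM in LowMg-HFD replicate 4, 741 and 784 FPKM in NormMg-LFD replicates 4 and 5, and 1.78 to 187 FPKM in the other 16 mice. The summed level of 15 pancreas markers was 2009 FPKM in NormMg-LFD replicate 3 and 13.2 to 52.9 FPKM elsewhere, and that of 11 epididymis markers was 154 FPKM in LowMg-LFD replicate 4, 31.8 FPKM in LowMg-HFD replicate 4 and at most 5.59 FPKM in the remaining mice. The study left out a LowMg-HFD sample for pancreatic tissue in it, without naming it in the labels. In these files the pancreas markers were high in the library labelled NormMg-LFD replicate 3, whereas the 5 LowMg-HFD libraries were at 21.5 to 44.6 FPKM, so the description and the labels do not match. Whether this library and a LowMg-HFD library were exchanged cannot be told from the labels. The summed level of 18 macrophage markers was 945 FPKM in it, 1025 to 1115 FPKM in the other NormMg-LFD mice and 1166 to 3550 FPKM in LowMg-HFD mice. All 19 mice were kept under their labels, and the results without each of these libraries are given beside the comparisons.

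Mitochondrial ribosomal protein mRNAs were present in all mice but at unequal levels, although a ribosome holds nearly all of these proteins in the same number. The mean over 19 mice ranged from 3.68 FPKM for Mrpl23 to 107.9 FPKM for Mrpl17, a ratio of 29.3. The median gene was at 28.6 FPKM and the middle of the distribution, between its quartiles, lay between 16.6 and 37.2 FPKM. For comparison, the median gene among the 8336 tested was at 20.3 FPKM. The 5 highest members were Mrpl17 and Mrpl20, large-subunit proteins with bacterial homologues, Mrps6 of the small subunit, Mrpl30 of the large subunit and Mrps21 of the small subunit. For Mrpl17 the lowest, median and highest mouse had 90.8, 104.4 and 135.2 FPKM. For Mrpl20 these were 89.8, 102.6 and 119.3 FPKM. The ranges of these leading 2 genes overlapped, so that their order is not fixed beyond the spread between mice. Mrps6 followed with 45.8, 92.6 and 110.5 FPKM, Mrpl30 with 60.02, 75.4 and 94.5 FPKM and Mrps21 with 51.97, 72.4 and 100.1 FPKM, and each range overlapped its neighbour. The 10 members above 50 FPKM included Mrpl12, the stalk protein of the large subunit, at 50.9 FPKM.

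**Figure D1:**
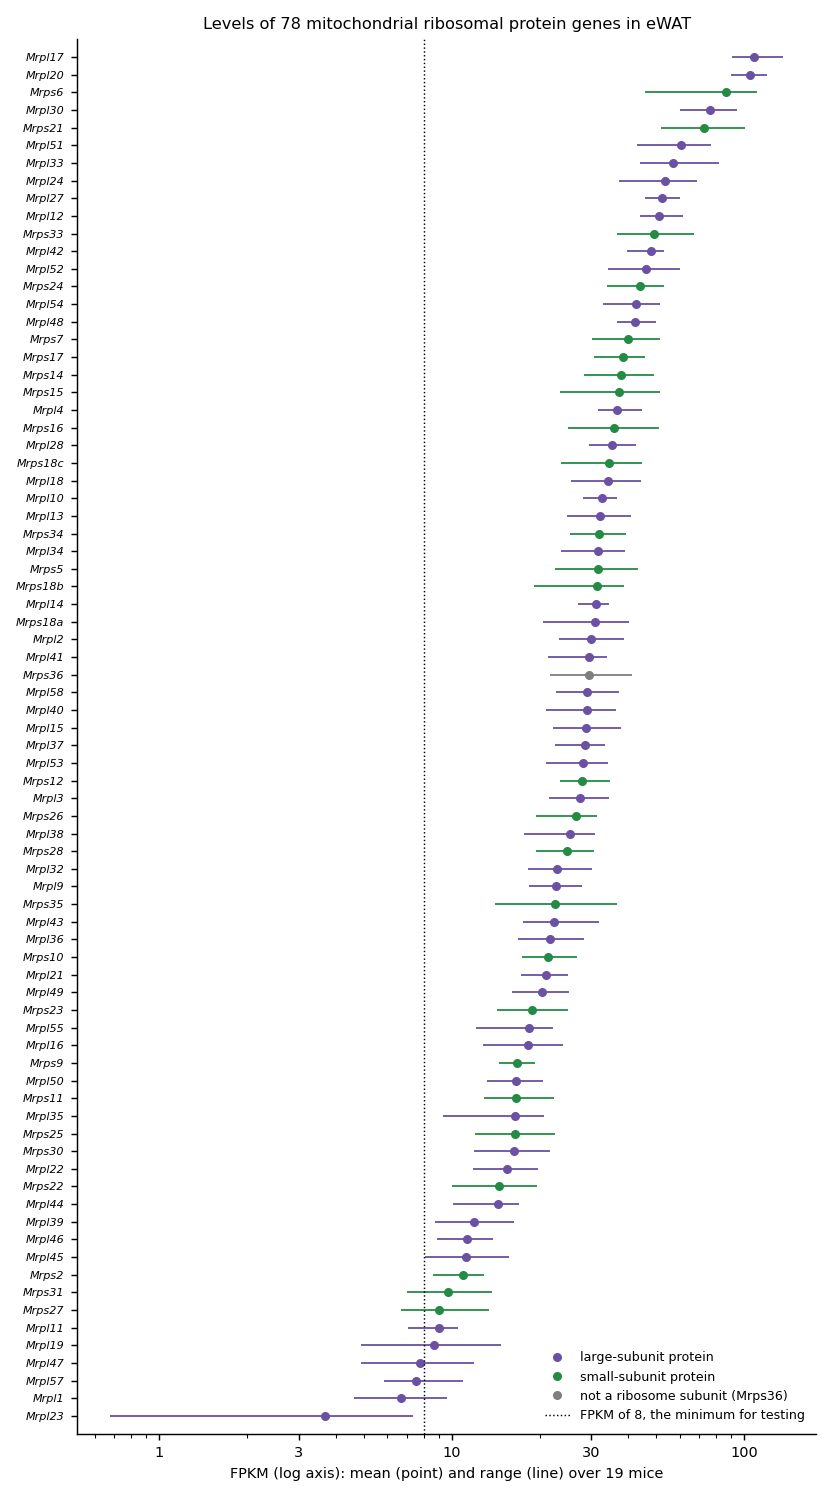
Mean (point) and range over 19 mice (line) of the FPKM of each of the 78 genes, ordered by mean on a log axis, with large-subunit proteins in purple, small-subunit proteins in green and Mrps36 in grey. Means run from 3.68 to 107.9 FPKM, both subunits are spread over the order, and the dotted line marks the FPKM of 8 used for testing.

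At the low end, 8 members had a mean under 10 FPKM. The 5 lowest were Mrpl23, Mrpl1, Mrpl57, Mrpl47 and Mrpl19, all of the large subunit, and these were the 5 genes that did not pass the filter for testing, which kept genes whose mean in some group, and whose value in 4 or more of its mice, exceeded 8 FPKM. The filter thus removed no small-subunit gene. Mrpl23 varied most between mice, from 0.68 to 7.34 FPKM, with a within-group SD of 0.78 on the log2 scale. Its values overlapped between all groups. In the group order NormMg-LFD, LowMg-LFD, NormMg-HFD and LowMg-HFD its means were 4.78, 3.17, 3.40 and 3.58 FPKM. Mrpl1 ranged from 4.63 to 9.62 FPKM and Mrpl57 from 5.87 to 10.9 FPKM. Mrpl47, the homologue of bacterial L29, ranged from 4.89 to 11.9 FPKM and Mrpl19 from 4.90 to 14.7 FPKM. The steadiest member was Mrpl14 of the large subunit, with a within-group SD of 0.07 on the log2 scale and 27.0 to 34.3 FPKM over all mice. The median within-group SD on the log2 scale was 0.18 for the 73 members tested and 0.22 for all 8336 genes tested.

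By class, the median level was 29.8 FPKM for large-subunit proteins with a bacterial homologue, 26.7 FPKM for mitochondrial large-subunit proteins, 35.0 FPKM for small-subunit proteins with a bacterial homologue and 20.7 FPKM for mitochondrial small-subunit proteins. The ranges of the classes overlapped broadly, from 3.68 to 107.9, 7.56 to 60.7, 10.9 to 86.5 and 9.06 to 48.9 FPKM. The large subunit as a whole had a median of 28.5 FPKM and the small subunit one of 29.5 FPKM.

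The genes are spread over 17 chromosomes, and what their starts share could be read from reference promoters. Promoter sequences of RefSeq (build GRCm38.p6) were found for 69 of the 78 genes, with 75 entries, and the 250 bases before the start were searched on both strands. The palindromic core of the site of nuclear respiratory factor 1 (NRF1), with any base at its centre, was in 10 of the 75 entries (13.3%) and in 3.74% of all 32851 promoters. The letters CCGGAAG, a site of the ETS family to which GABP (nuclear respiratory factor 2) belongs, were in 18 entries (24.0%) and in 6.91% of all. The letters AAGATGGC, a YY1 site, were in 4 entries (5.33%) and in 1.56% of all, CACGTG was in 7 entries (9.33%) and in 6.02%, where 3 of the 7 are overlapping promoters of Mrpl2 that hold the same match and the genes number 5, and TATAAA was in 5 entries (6.67%) and in 12.4%. None of these strings contains another of them. The median GC content was 58.4% in the members and 52.4% in all promoters. A match is only a match of letters and was not tested for binding. The promoters of 4 members are shown, Mrpl17 as the highest gene with a match to both respiratory-factor strings, Mrpl45 with a pair of NRF1 matches, Mrpl9 as a gene that differed between diets and holds an NRF1 match, and Mrps15 as a gene that differed between diets and holds none of the strings. Capitals mark matches to the NRF1, ETS or YY1 strings on either strand, and each sequence is written 5′ to 3′ on the strand of its gene (chr7:105811088-105811337 on the minus strand, chr11:97315466-97315715, chr3:94443086-94443335 and chr4:126046678-126046927 on the plus strand, GRCm38.p6).
Mrpl17: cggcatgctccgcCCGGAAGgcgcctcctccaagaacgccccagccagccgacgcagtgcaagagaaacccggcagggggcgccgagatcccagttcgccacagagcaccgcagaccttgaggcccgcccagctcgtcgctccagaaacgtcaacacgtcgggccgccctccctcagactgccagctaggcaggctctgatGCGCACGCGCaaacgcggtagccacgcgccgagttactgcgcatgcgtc
Mrpl45: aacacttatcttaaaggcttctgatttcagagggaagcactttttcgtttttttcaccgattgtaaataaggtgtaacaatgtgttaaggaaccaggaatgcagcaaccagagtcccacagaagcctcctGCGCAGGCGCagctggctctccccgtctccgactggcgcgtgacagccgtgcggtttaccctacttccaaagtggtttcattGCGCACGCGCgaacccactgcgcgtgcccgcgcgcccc
Mrpl9: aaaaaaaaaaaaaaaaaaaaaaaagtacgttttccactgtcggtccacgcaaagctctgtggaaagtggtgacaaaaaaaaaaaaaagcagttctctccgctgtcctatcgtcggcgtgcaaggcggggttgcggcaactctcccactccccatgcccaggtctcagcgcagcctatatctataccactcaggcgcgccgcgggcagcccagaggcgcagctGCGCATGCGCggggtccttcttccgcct
Mrps15: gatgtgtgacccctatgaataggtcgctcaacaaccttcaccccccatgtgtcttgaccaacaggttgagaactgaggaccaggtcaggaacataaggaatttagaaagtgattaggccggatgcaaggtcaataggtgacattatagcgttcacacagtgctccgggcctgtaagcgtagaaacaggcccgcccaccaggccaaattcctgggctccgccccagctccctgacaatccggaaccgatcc
In Mrpl17 the NRF1 string lies 49 to 40 bases before the start and the ETS string 237 to 231 bases before it. In Mrpl45 the NRF1 strings lie 120 to 111 and 38 to 29 bases before the start, and in Mrpl9 28 to 19 bases before it. Of the 10 members past the test in a comparison below that had a RefSeq promoter, an NRF1 match was in Mrpl9 and an ETS match in Mrps16, and a YY1 match in none.

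Averaged over the 78 genes, the level was similar in the mice of the 4 groups. The mean log2(FPKM + 1) was 4.74 ± 0.03 in NormMg-LFD (SD, n = 4), 4.74 ± 0.06 in LowMg-LFD (n = 5), 4.73 ± 0.06 in NormMg-HFD (n = 5) and 4.70 ± 0.04 in LowMg-HFD (n = 5). Single mice ran from 4.65 to 4.80, and the groups overlapped. The summed FPKM over the 78 genes was 2297 to 2601 in all mice, with group medians of 2421, 2431, 2475 and 2377 in the same order. The number of members above their own median over the 19 mice was 31 to 47 of 78 in the NormMg-LFD mice, 28 to 47 in the LowMg-LFD mice, 29 to 52 in the NormMg-HFD mice and 28 to 41 in the LowMg-HFD mice. Of the mice that stood apart by markers of other organs, LowMg-HFD replicate 4 had the highest mean of its group (4.76, the others 4.65 to 4.72) and NormMg-LFD replicate 5 the lowest of its own (4.72). NormMg-LFD replicates 3 and 4 were at 4.74 and 4.72, and LowMg-LFD replicate 4, at 4.68, had the lowest summed FPKM of all mice. Since these are bulk samples and FPKM are shares of a library, fewer cells of a type and less mRNA per cell cannot be told apart.

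**Figure D2:**
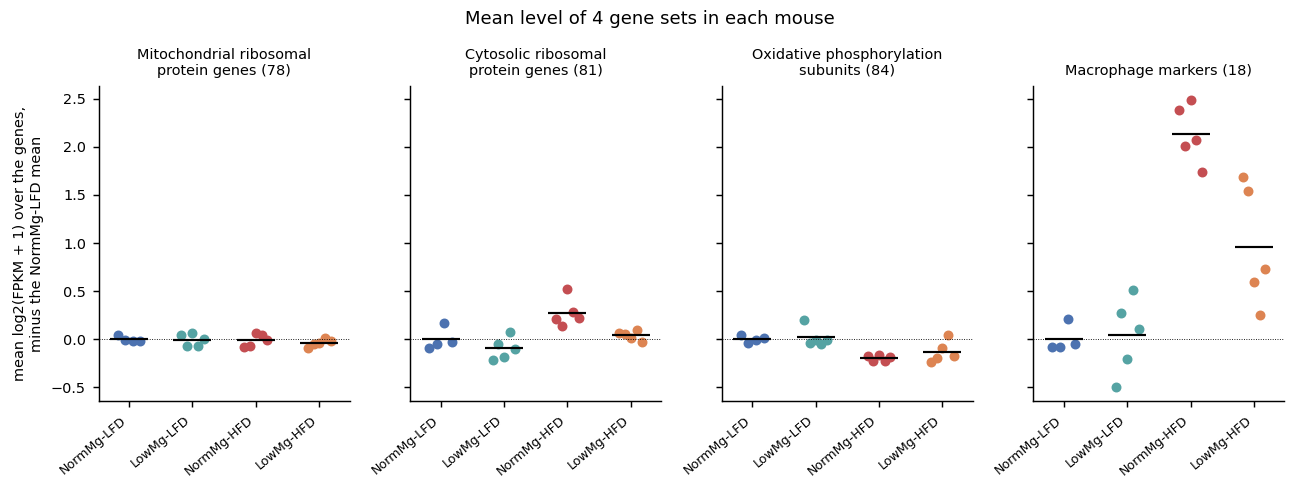
Mean log2(FPKM + 1) over the genes of a set in each mouse (points), minus the NormMg-LFD mean, with group means as lines, for the 78 mitochondrial ribosomal protein genes and, for comparison, 81 cytosolic ribosomal protein genes, 84 oxidative phosphorylation subunits and 18 macrophage markers. The mitochondrial ribosomal protein genes stay within 4.65 to 4.80 in all groups, while macrophage markers are highest in the NormMg-HFD mice.

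With low Mg2+ on the high-fat diet, 1 of these genes passed the test. In the comparison of LowMg-HFD with NormMg-HFD mice, 1542 of the 8336 genes tested (18.5%) passed limma's test at an adjusted p of 0.05, 465 higher (5.58%) and 1077 lower (12.9%). Of the 73 members tested, 1 passed (1.37%), which was Mrps7. At an unadjusted p under 0.05 there were 7 members (9.59%), against 32.4% of all genes. The median log2 fold change was -0.02 over the members and -0.04 over all genes, and single members ranged from -0.37 to 0.34. The 95% confidence interval of the difference lay within a factor of 1.5 in both directions for 69 of the 73 members (94.5%), and for 64.7% of all genes tested. The widest of the members' intervals reached -0.69 and 0.59, both on the log2(FPKM + 1) scale on which all fold changes are given.

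Mrps7 (chr11:115603925-115608036, GRCm38) encodes a small-subunit protein that binds the head of the small ribosomal RNA. Its FPKM was 31.3, 30.1, 38.7, 36.6 and 31.7 in the 5 NormMg-HFD mice and 35.9, 44.4, 44.8, 42.2 and 46.9 in the 5 LowMg-HFD mice. Of the LowMg-HFD mice 4 lay above all NormMg-HFD mice and 1, replicate 1, lay inside their range. The log2 fold change was 0.34 ± 0.12 (SE) with an adjusted p of 0.0473 by limma, with a 95% interval of 0.10 to 0.58. The LFD mice had 40.2, 40.97, 31.4 and 51.5 FPKM (NormMg-LFD) and 43.6, 38.2, 49.4, 38.6 and 43.01 FPKM (LowMg-LFD), so that the NormMg-HFD group was the one with the lowest mean. The call was near the threshold. It was made in 6 of the 19 fits that left out 1 mouse, those without LowMg-HFD replicate 1, LowMg-LFD replicates 3 and 4, NormMg-HFD replicate 3 or NormMg-LFD replicates 4 and 5, and in the other 13 the adjusted p was between 0.0502 and 0.110. Exon bases of Mrps7 are shared with Gga3 (127 bases) and Mif4gd (119 bases) on the opposite strand, and whether the libraries kept strand is not stated in the sources used here. In the same comparison the log2 fold change was -0.09 (SE 0.20) for Gga3 and 0.28 (SE 0.14) for Mif4gd, neither past the threshold.

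Mrps16, a small-subunit protein with a bacterial homologue, was the 1 tested member whose values did not overlap between LowMg-HFD and NormMg-HFD (1.37% of members, against 12.8% of all genes tested). It had 34.6, 30.98, 38.6, 31.4 and 32.1 FPKM in the NormMg-HFD mice and 24.9, 30.7, 30.3, 30.2 and 29.9 FPKM in the LowMg-HFD mice. All 5 LowMg-HFD mice were lower, by a narrow margin, and the log2 fold change of -0.19 (SE 0.11) did not pass the test (adjusted p = 0.219). Without NormMg-LFD replicate 3, the library with pancreas markers, no member was called in this comparison, and without NormMg-LFD replicate 4 or 5 or LowMg-LFD replicate 4 the count was 1, Mrps7. Without LowMg-HFD replicate 4, the library with testis markers, Mrps7 was no longer called (log2 fold change 0.34, adjusted p = 0.0672), and Mrpl35 of the large subunit was called lower instead (log2 fold change -0.47, adjusted p = 0.0336). Mrpl35, singled out after its values were seen, had 18.6, 18.9, 18.8, 18.1 and 17.6 FPKM in NormMg-HFD and 14.4, 9.31, 15.6, 20.6 and 13.6 FPKM in LowMg-HFD mice, with replicate 4 the highest of its group.

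With low Mg2+ on the low-fat diet, none of these genes passed the test. In LowMg-LFD against NormMg-LFD mice, 0 of 73 members and 0 of the 8336 genes tested (0%) passed limma's test. At an unadjusted p under 0.05 there were 5 members (6.85%) and 547 genes in all (6.56%). The median log2 fold change was 0.00 over the members and -0.06 over all genes, and single members ranged from -0.44 for Mrps6 to 0.35 for Mrps18b. The 95% interval lay within a factor of 1.5 for 70 of 73 members (95.9%) and for 76.2% of all genes. In 1 of the 73 members, Mrpl21 of the large subunit, the values of the groups did not overlap (1.37%, against 1.79% of all genes tested). The values of Mrpl21 were 18.3, 19.5, 19.5 and 19.6 FPKM in NormMg-LFD and 23.6, 21.8, 23.1, 22.8 and 21.97 FPKM in LowMg-LFD mice, with an adjusted p of 0.753 by limma. The count of members past limma's test was also 0 without any 1 of the libraries that stood apart.

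**Figure D3:**
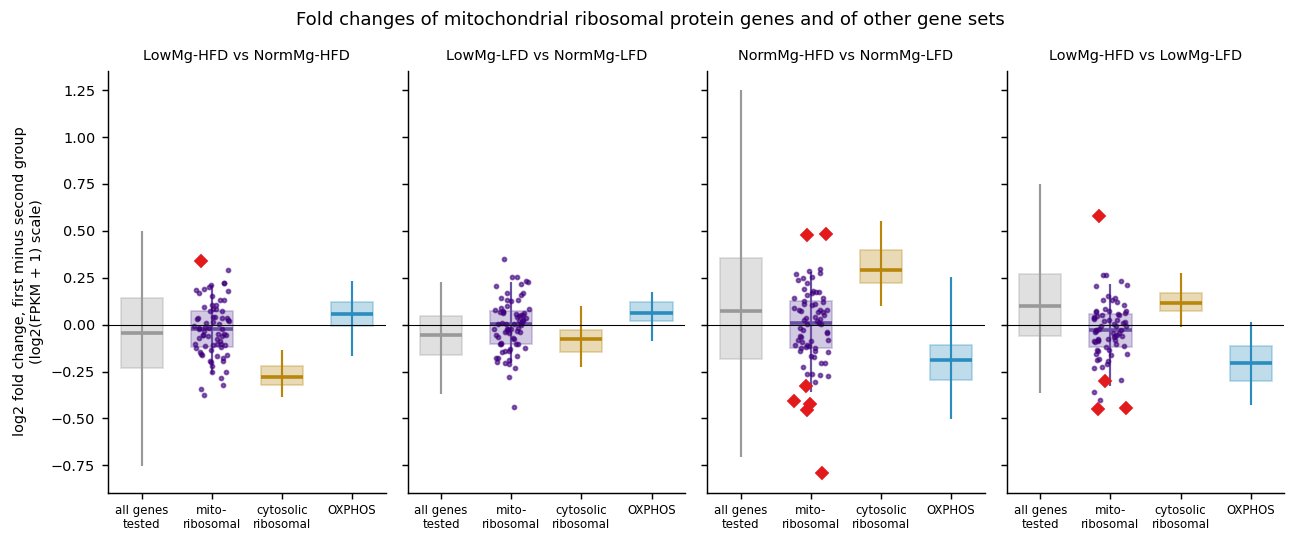
Log2 fold change (first minus second group named) in the 4 comparisons of 2 groups, with boxes from the lower to the upper quartile, a bar at the median and lines from the 5th to the 95th percentile for all genes tested, the mitochondrial ribosomal protein genes, the cytosolic ribosomal protein genes and the oxidative phosphorylation subunits. Points are the 73 members tested and red diamonds the 12 past the threshold. The members' medians lie between -0.03 and 0.01, while the medians of the cytosolic set and of the oxidative phosphorylation set reach 0.29 and -0.21.

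Dietary fat at normal Mg2+ gave the most calls. In NormMg-HFD against NormMg-LFD mice 3114 of 8336 genes (37.4%) passed limma's test, 2048 higher (24.6%) and 1066 lower (12.8%). Among the members 7 of 73 passed (9.59%), 2 higher and 5 lower. They were Mrps18b and Mrps33, higher, and Mrps35, Mrps15, Mrps30, Mrpl38 and Mrpl49, lower. At an unadjusted p under 0.05 there were 17 members (23.3%), against 45.8% of all genes. The median log2 fold change was 0.01 over the members and 0.07 over all genes, and 66 of 73 members (90.4%) had an interval within a factor of 1.5, against 4167 of all 8336 genes. This split depended on the scaling. With each mouse centred on its median gene, or with quantile normalization, the median of all genes moved by 0.10 or 0.12 and 15 members passed, 1 higher and 14 lower, while 19% or 18% of all genes were higher and 18.9% or 20.3% lower. The members' median then lay at -0.09 or -0.10. Relative to the median of all genes it was -0.06 as deposited and -0.06 and -0.05 after the rescalings. Values did not overlap between the groups in 9 members (12.3%), against 32.1% of all genes tested.

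The rises were in 2 mitochondrial small-subunit proteins. Mrps18b, 1 of a trio of paralogues related to bacterial S18 (chr17:35910379-35916389), had 19.01, 25.97, 29.3 and 22.6 FPKM in the NormMg-LFD mice and 27.6, 33.7, 36.7, 36.8 and 34.4 FPKM in the NormMg-HFD mice. The groups overlapped through 1 mouse of the HFD group, and the log2 fold change was 0.48 ± 0.13 (SE) with an adjusted p of 0.00567 by limma. The LowMg groups were at 30.98 ± 4.08 (SD, n = 5) and 34.5 ± 3.91 (SD, n = 5) FPKM, on LFD and HFD, close to the NormMg-HFD mice, so the NormMg-LFD group held the lowest mean. Mrps33 (chr6:39801804-39810988) had 37.03, 44.6, 42.1 and 46.5 FPKM in NormMg-LFD and 62.4, 56.8, 67.02, 66.8 and 47.3 FPKM in NormMg-HFD mice. The groups did not overlap, although the gap was under 1 FPKM, and the log2 fold change was 0.48 ± 0.16 (SE) with an adjusted p of 0.0246 by limma. In the LowMg-HFD mice Mrps33 was at 46.2 ± 7.68 (SD, n = 5) FPKM, with a log2 fold change against NormMg-HFD of -0.37 that did not pass (adjusted p = 0.0931 by limma). Mrps33 was no longer called after the rescalings (log2 fold change 0.38 and 0.36, adjusted p = 0.0891 and 0.102), nor without NormMg-HFD replicate 3 or 4 or NormMg-LFD replicate 2 (0.44, 0.44 and 0.42, adjusted p between 0.0573 and 0.0800).

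Mrps35 (chr6:147042764-147073991), a mitochondrial protein of the small subunit, had the largest change of any member in the 4 comparisons. It had 26.3, 36.8, 35.1 and 20.9 FPKM in NormMg-LFD and 22.9, 16.7, 15.2, 14.2 and 14.1 FPKM in NormMg-HFD mice. Of the NormMg-HFD mice 4 were below every NormMg-LFD mouse and replicate 1 was inside their range. The log2 fold change was -0.79 ± 0.19 (SE) with an adjusted p of 0.00264 by limma. At low Mg2+ it had 28.2, 24.3, 17.7, 24.2 and 33.1 FPKM on LFD and 15.2, 17.3, 19.2, 23.8 and 21.8 FPKM on HFD, an overlapping difference of -0.36 that did not pass (adjusted p = 0.184). The fall of Mrps35 was called in all 29 fits, that is, as reported and in 28 alternatives.

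Mrps15 (chr4:126046925-126055532), a small-subunit protein with a bacterial homologue, had 51.3, 46.9, 34.1 and 39.4 FPKM in NormMg-LFD and 30.9, 23.4, 34.4, 33.4 and 32.5 FPKM in NormMg-HFD mice. The groups overlapped by a narrow margin, and the log2 fold change was -0.46 ± 0.16 (SE) with an adjusted p of 0.0303 by limma. It lost its call without NormMg-HFD replicate 2 (-0.36), the lowest mouse, or without NormMg-LFD replicates 2 (-0.37) or 3 (-0.41), with adjusted p between 0.0837 and 0.110. Mrps30 (chr13:118378381-118387252), a large-subunit protein despite its symbol, had 20.5, 21.6, 17.5 and 19.9 FPKM in NormMg-LFD and 11.9, 16.01, 13.9, 14.5 and 16.7 FPKM in NormMg-HFD mice. The groups did not overlap, and the log2 fold change was -0.43 ± 0.11 (SE) with an adjusted p of 0.00425 by limma. LowMg-LFD mice had 19.1, 16.5, 14.4, 16.4 and 14.97 FPKM, lower on average than NormMg-LFD but not past the threshold (log2 fold change -0.28, adjusted p = 0.753). Of the exon bases of Mrps30, 623 of 6666 are shared with B430218F22Rik on the opposite strand, whose level was 3.07 to 7.40 FPKM over all mice.

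Mrpl38 (chr11:116131817-116138868), a mitochondrial large-subunit protein, had 29.7, 29.98, 30.9 and 28.5 FPKM in NormMg-LFD and 24.5, 19.4, 24.8, 22.9 and 20.2 FPKM in NormMg-HFD mice. All HFD mice were lower, and the log2 fold change was -0.41 ± 0.12 (SE) with an adjusted p of 0.0147 by limma. Mrpl49 (chr19:6053622-6057785), also a mitochondrial large-subunit protein, had 25.1, 21.9, 19.8 and 24.2 FPKM in NormMg-LFD and 18.96, 17.9, 16.1, 18.9 and 17.8 FPKM in NormMg-HFD mice. All HFD mice were lower here too, and the log2 fold change was -0.33 ± 0.11 (SE) with an adjusted p of 0.0207 by limma. Mrpl49 lost its call without NormMg-HFD replicate 3 (-0.29) or NormMg-LFD replicates 2 (-0.28) or 5 (-0.30), with adjusted p between 0.0546 and 0.0735. Without NormMg-LFD replicate 3, the library with pancreas markers, the count of members in this comparison was again 2 higher and 5 lower, but Mrps15 was no longer called and Mrps16 was called lower (log2 fold change -0.35, adjusted p = 0.0306 by limma). In the fits without NormMg-LFD replicates 4 or 5, the libraries with testis markers, the count was 9 (3 higher, 6 lower) or 6 (2 higher, 4 lower). Without LowMg-HFD replicate 4 or LowMg-LFD replicate 4 it was 8, the 7 named and Mrpl51 (lower) or Mrps6 (higher).

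**Figure D4:**
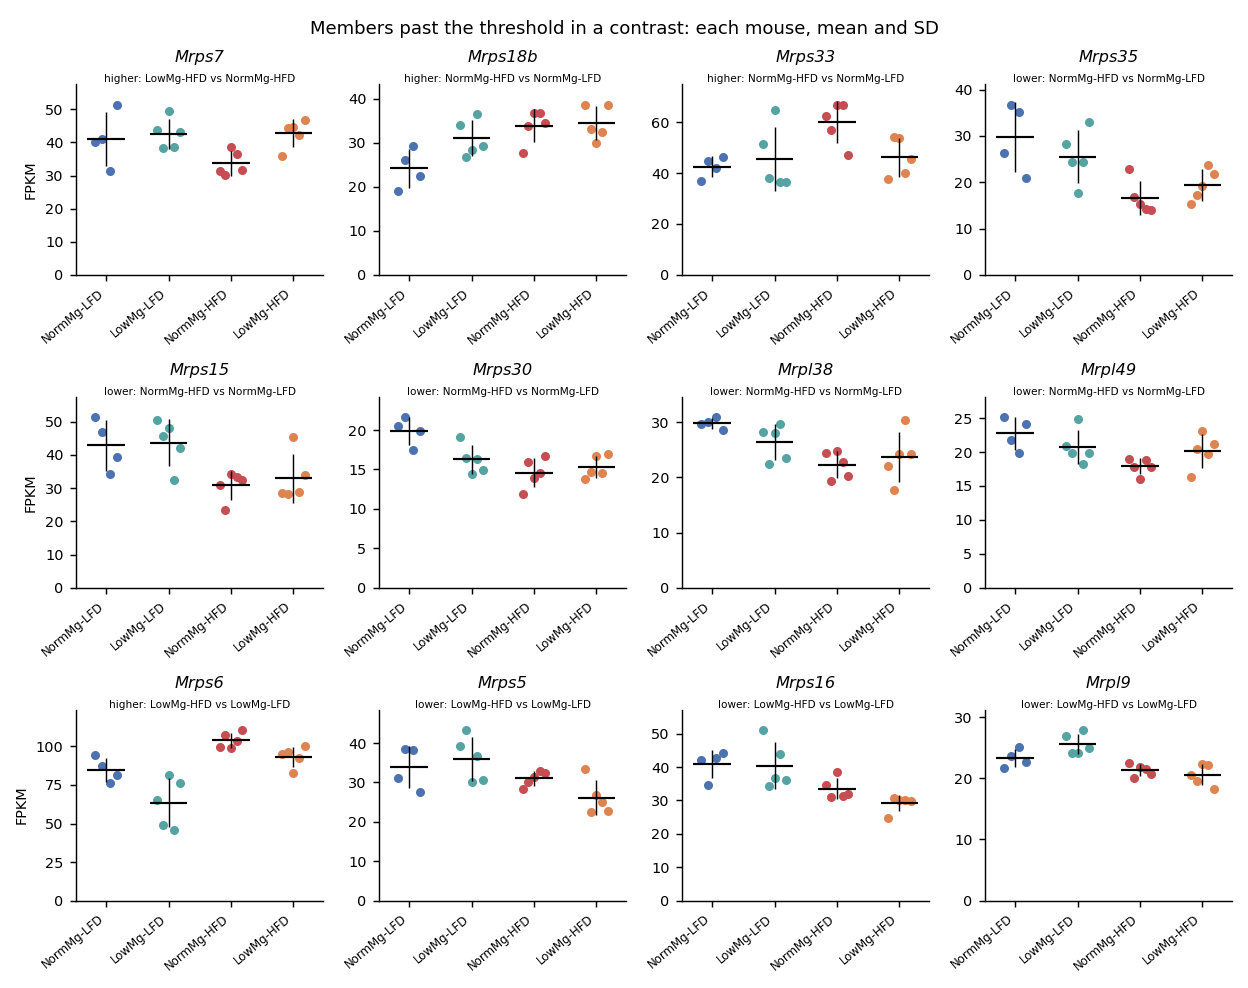
FPKM of the 12 members past the threshold in each mouse (points, coloured by group), with the group mean (bar) and SD (line), and each axis starting at 0; the line of text above a panel names the comparison and direction of the call. The sizes run from the fall of Mrps35 on HFD (log2 fold change -0.79) to that of Mrpl9 (-0.30).

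Dietary fat at low Mg2+ gave calls in 4 members. In LowMg-HFD against LowMg-LFD mice 1329 of 8336 genes (15.9%) passed limma's test, 1036 higher (12.4%) and 293 lower (3.51%). Among the members 4 of 73 passed (5.48%), Mrps6 higher and Mrps5, Mrps16 and Mrpl9 lower, and 9 (12.3%) had an unadjusted p under 0.05, against 29.6% of all genes. The members' median was -0.03 and that of all genes 0.10. After median centring or quantile normalization, which moved the median of all genes by 0.11 or 0.12, 7 members passed (1 higher, 6 lower), against 7.11% or 6.59% of all genes higher and 6.37% or 6.36% lower, and the members' median was -0.14 or -0.15. Relative to the median of all genes it was -0.13 as deposited and -0.13 in both rescalings. Values did not overlap between the groups in 4 members (5.48%), against 9.3% of all genes tested. The intervals of 68 of 73 members (93.2%) lay within a factor of 1.5, against 65.6% of all genes. As deposited, none of these 4 passed at normal Mg2+, but after either rescaling Mrpl9, Mrps16 and Mrps34 were lower on HFD at both Mg2+ levels. For Mrps16 the centred log2 fold changes were -0.38 at normal Mg2+ (adjusted p = 0.0196 by limma) and -0.56 at low Mg2+ (adjusted p = 0.0044 by limma). Both fat comparisons are therefore not shown to differ in their genes, and no member passed the test of the interaction given below.

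Mrps6 (chr16:92058270-92112227), a small-subunit protein and the third highest member, had 65.3, 49.3, 81.2, 45.8 and 76.5 FPKM in LowMg-LFD and 94.96, 96.2, 82.6, 92.6 and 100 FPKM in LowMg-HFD mice. The groups did not overlap, and the log2 fold change was 0.58 ± 0.13 (SE) with an adjusted p of 0.00478 by limma. At normal Mg2+ it had 94.4, 87.2, 76.2 and 81.4 FPKM on LFD and 99.8, 107.5, 99.3, 103.8 and 110.5 FPKM on HFD. Here too no HFD mouse overlapped the LFD mice, with a log2 fold change of 0.30 that did not pass (adjusted p = 0.0904). The exons of Mrps6 are shared in part, on the same strand, with Slc5a3 (159 of 1533 bases), the gene of an inositol transporter that lies within the Mrps6 locus, and with Gm49711 (305 bases), so that the division of reads between them is uncertain. Slc5a3 was at 4.68 to 12.2 FPKM, with a log2 fold change of 0.15 (SE 0.19) in this comparison.

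Mrps16 (chr14:20389304-20393634) had 51.05, 34.5, 36.7, 43.8 and 36.2 FPKM in LowMg-LFD mice, all above the LowMg-HFD values given above, with a log2 fold change of -0.45 ± 0.11 (SE) with an adjusted p of 0.00817 by limma. NormMg-LFD mice had 42.02, 34.6, 42.6 and 44.1 FPKM, and the difference between the diets at normal Mg2+ of -0.28 did not pass (adjusted p = 0.0629). The 4 group means thus stood at 40.8, 40.5, 33.5 and 29.2 FPKM, in the order NormMg-LFD, LowMg-LFD, NormMg-HFD and LowMg-HFD. Mrps5 (chr2:127587222-127606829), a small-subunit protein with a bacterial homologue, had 39.4, 43.3, 30.2, 36.6 and 30.6 FPKM in LowMg-LFD and 33.5, 22.5, 26.8, 25.1 and 22.9 FPKM in LowMg-HFD mice. The groups overlapped through LowMg-HFD replicate 1, and the log2 fold change was -0.45 ± 0.12 (SE) with an adjusted p of 0.0175 by limma. The call was lost without LowMg-HFD replicate 2 (-0.40, adjusted p = 0.0579) or LowMg-LFD replicate 1 (-0.41, adjusted p = 0.0515).

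Mrpl9 (chr3:94443318-94451130), a large-subunit protein with a bacterial homologue, had 26.8, 24.04, 24.2, 27.8 and 25 FPKM in LowMg-LFD and 20.5, 19.6, 22.3, 22.2 and 18.3 FPKM in LowMg-HFD mice. The groups did not overlap, and the log2 fold change was -0.30 ± 0.08 (SE) with an adjusted p of 0.011 by limma. Exon bases of Mrpl9 are shared (157 of 2703) with Oaz3 on the opposite strand, a gene of haploid male germ cells, which was at 221 FPKM in LowMg-HFD replicate 4 and at most 43.0 FPKM in all other mice. The Mrpl9 value of replicate 4, 22.2 FPKM, lay between those of its group, and without that mouse the fall was as large (-0.33). In the fits without LowMg-HFD replicate 4 the members called in this comparison numbered 5 (1 higher, 4 lower), and without LowMg-LFD replicate 4, the library with epididymis markers, 6 (1 higher, 5 lower). Without NormMg-LFD replicate 3, 4 or 5 the same 4 members were called.

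The interaction asks whether low Mg2+ acted differently on LFD and on HFD. It passed limma's test in 104 of 8336 genes (1.25%, with 0.492% higher and 0.756% lower) and in 0 of 73 members, of which 2 had an unadjusted p under 0.05 (2.74%, against 20.4% of all genes). These were Mrps30, with a log2 difference of 0.35 (SE 0.15, adjusted p = 0.195), and Mrpl21, with -0.36 (SE 0.13, adjusted p = 0.118). Single members ranged from -0.45 to 0.43, and 51 of 73 (69.9%) had a 95% interval within a factor of 1.5, against 42.6% of all genes. The count was again 0 without any 1 of the libraries that stood apart. The interaction was measured less precisely than the single comparisons.

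Over the 4 comparisons of 2 groups there were 12 calls in 12 different genes, and 61 tested members were called in none. Of all genes tested 18.5%, 0%, 37.4% and 15.9% passed in these comparisons, in the order given above. The comparisons share groups and are not independent. By structure, 8 of the 12 calls were in small-subunit and 4 in large-subunit proteins, of which 26 and 46 were tested. A difference between the subunits was not tested. In NormMg-HFD against NormMg-LFD mice, where 37.4% of all genes passed, the mitochondrial small-subunit class had 3 calls of 10 tested (2 higher, 1 lower), the mitochondrial large-subunit class 3 of 21 (all lower), the small-subunit class with bacterial homologues 1 of 16 (lower) and the large-subunit class with bacterial homologues 0 of 25, with 1 unadjusted p under 0.05. The class medians in that comparison were -0.03, -0.07, 0.02 and 0.09. These class counts depended on the scaling. After either rescaling they were 4 of 10 (1 higher, 3 lower), 6 of 21, 3 of 16 and 2 of 25 in the same order, all lower in the last 3 classes. After median centring or quantile normalization 19% or 18% of all genes were higher and 18.9% or 20.3% lower.

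Members chosen for their place in the ribosome showed the same narrow range. Between LowMg-HFD and NormMg-HFD mice the stalk, which recruits translation factors, had log2 fold changes of 0.03 for Mrpl10 (95% interval -0.15 to 0.20), 0.17 for Mrpl11 (-0.07 to 0.40) and -0.10 for Mrpl12 (-0.33 to 0.12). Mrpl12, which also binds the mitochondrial RNA polymerase, had 51.9 ± 5.06 (SD, n = 5) FPKM in NormMg-HFD and 48.2 ± 3.75 (SD, n = 5) FPKM in LowMg-HFD mice. Mrps12 of the decoding centre was at 28.1 ± 2.32 (SD, n = 5) and 29.1 ± 4.41 (SD, n = 5) FPKM in the same groups, a log2 difference of 0.04 (-0.16 to 0.25). Mrpl45, the anchor to the inner membrane, had a log2 difference of 0.21 (-0.03 to 0.45, adjusted p = 0.219). Mrpl58, a peptidyl-tRNA hydrolase that releases chains from stalled ribosomes, had one of -0.20 (-0.45 to 0.05, adjusted p = 0.264). None of these passed the threshold in any of the 5 contrasts as reported.

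The trio of S18 paralogues, which occupy different places in the ribosome, was at similar levels. Over all mice the mean was 34.3 FPKM for Mrps18c, 31.2 FPKM for Mrps18b and 30.8 FPKM for Mrps18a, differences within their spread between mice. In NormMg-HFD against NormMg-LFD mice the log2 fold change was 0.48 for Mrps18b, -0.22 for Mrps18a (adjusted p = 0.156) and 0.03 for Mrps18c (adjusted p = 0.897), and the differences between paralogues were not tested. Mrps36, the gene outside the ribosome, had a mean of 29.4 FPKM and log2 fold changes of 0.02, -0.20, -0.14 and 0.08 in the 4 comparisons in the order given above, with no call. With Mrps36 left out and 5 subunits that carry other names added (Dap3, Ptcd3, Aurkaip1, Chchd1 and Gadd45gip1), the numbers of calls stayed 1, 0, 7, 4 and 0, since none of the 5 passed.

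Other genes of mitochondrial translation were read from the same fit. Of 18 translation factor genes 13 were tested and 0 passed limma's test in any of the 5 contrasts, with 0, 0, 1, 1 and 0 unadjusted p under 0.05. Of 28 genes for assembly of the ribosome and modification of its RNA 16 were tested. Mterf4, which brings a methyltransferase to the ribosomal RNA, was lower on HFD when Mg2+ was low (LowMg-HFD 9.01 ± 1.37 FPKM, NormMg-HFD 15.5 ± 2.99 FPKM, SD, n = 5 each, log2 fold change -0.71, SE 0.17, adjusted p = 0.00754). Clpp, a matrix protease, was lower on HFD at normal Mg2+ (log2 fold change -0.56, SE 0.12, adjusted p = 0.000804) and at low Mg2+ (-0.43, SE 0.11, adjusted p = 0.0113). Mterf3 was lower on HFD at normal Mg2+ (-0.52, SE 0.14, adjusted p = 0.0081) and Mettl17, a factor bound to the assembling small subunit, at low Mg2+ (-0.60, SE 0.19, adjusted p = 0.0347). Of 19 genes of mitochondrial transcription and RNA processing 12 were tested, and Hsd17b10, a subunit of mitochondrial RNase P, was lower on HFD at both Mg2+ levels (-0.58, SE 0.14, adjusted p = 0.00273, and -0.57, SE 0.13, adjusted p = 0.00588). Of 17 mitochondrial tRNA synthetases 9 were tested, and Iars2 was lower in both fat comparisons (-0.45, SE 0.08, adjusted p = 0.000333, and -0.27, SE 0.08, adjusted p = 0.0238). Of 17 regulators of nuclear genes for mitochondrial proteins 10 were tested. In NormMg-HFD against NormMg-LFD mice Atf4, Nfe2l2 and Esrra were called higher, 30% of the 10 against 24.6% of all genes (log2 fold changes 0.47, 0.39 and 0.29, adjusted p = 0.0143, 0.0243 and 0.046), and Esrra, the estrogen-related receptor alpha that drives many mitochondrial genes, was called lower with low Mg2+ on HFD (-0.32, SE 0.11, adjusted p = 0.0424), 10% of the 10 against 12.9% of all genes. Both calls of Esrra were lost after median centring (0.19, adjusted p = 0.184, and -0.26, adjusted p = 0.0872) and after quantile normalization (0.19, adjusted p = 0.194, and -0.26, adjusted p = 0.0874), and that of Nfe2l2 after quantile normalization (0.26, adjusted p = 0.0725, by limma). Of the assembly genes 12.5% were lower in NormMg-HFD than in NormMg-LFD mice, against 12.8% of all genes. In LowMg-HFD against LowMg-LFD mice 12.5% were lower, against 3.51%. In each of these 2 comparisons 1 of the 12 transcription genes (8.33%) and 1 of the 9 synthetases (11.1%) were lower. With low Mg2+ on HFD 1 of the 16 assembly genes was lower (6.25%, against 12.9% of all genes). The other calls named here were also made after either rescaling. The rescalings added calls in these lists, among them 1 translation factor gene (7.69% of 13), Gatb, lower in NormMg-HFD against NormMg-LFD mice.

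The counts can be set beside those of 2 gene sets near to them in function. Of 77 cytosolic ribosomal protein genes tested, 32 were lower with low Mg2+ on HFD and 43 higher in NormMg-HFD than in NormMg-LFD mice, with median log2 fold changes of -0.28 and 0.29. Of 77 nuclear-encoded oxidative phosphorylation subunits tested, 31 were lower and 3 higher in NormMg-HFD than in NormMg-LFD mice (median -0.19) and 26 lower in LowMg-HFD than in LowMg-LFD mice (median -0.21). With low Mg2+ on HFD, 12.9% of all genes tested were lower, against 41.6% of the cytosolic set and 0% of the oxidative phosphorylation set and of the members. In that comparison 5.58% of all genes were higher, against 0% of the cytosolic set, 2.6% of the oxidative phosphorylation set and 1.37% of the members. In NormMg-HFD against NormMg-LFD mice 24.6% of all genes were higher, against 55.8% of the cytosolic set and 2.74% of the members, and 12.8% were lower, against 40.3% of the oxidative phosphorylation set and 6.85% of the members. In LowMg-HFD against LowMg-LFD mice 3.51% of all genes were lower, against 33.8% of the oxidative phosphorylation set, 0% of the cytosolic set and 4.11% of the members. Of all genes 12.4% were higher there, against 0% of the oxidative phosphorylation set, 1.3% of the cytosolic set and 1.37% of the members. These shares moved with the scaling. After median centring and after quantile normalization the cytosolic set had 18 and 4 genes lower with low Mg2+ on HFD (23.4% and 5.19%, against 10.2% and 10.5% of all genes) and 22 and 12 higher in NormMg-HFD than in NormMg-LFD mice (28.6% and 15.6%, against 19% and 18%). The members had 0 lower and 1 higher with low Mg2+ on HFD after either rescaling (1.37% higher, against 7.79% and 9.43% of all genes). After quantile normalization the cytosolic share was below that of all genes in both comparisons. After the same 2 rescalings the oxidative phosphorylation set had 42 and 57 lower in NormMg-HFD against NormMg-LFD mice (54.5% and 74%, against 18.9% and 20.3% of all genes, and 19.2% of the members in both) and 41 and 39 lower in LowMg-HFD against LowMg-LFD mice (53.2% and 50.6%, against 6.37% and 6.36%, and 8.22% of the members in both). With low Mg2+ on HFD that set then had 0 lower, and 2 and 11 higher (2.6% and 14.3%, against 7.79% and 9.43% of all genes). The mRNAs encoded by the mitochondrial genome, which the mitochondrial ribosome translates, could be read only in part. Of 13 such genes 10 were tested, and mt-Co2 and mt-Co3 could not be read: mt-Co2 was listed at 0 in all but 2 LowMg-LFD mice and mt-Co3 at 0.29 or 0.30 FPKM in all but 1 LowMg-LFD mouse, although every cell with mitochondria uses them. Of the 10, 7 were lower in NormMg-HFD than in NormMg-LFD mice (70%, against 12.8% of all genes). In LowMg-HFD against LowMg-LFD mice 6 were lower (60%, against 3.51%), and with low Mg2+ on HFD 3 were higher (30%, against 5.58%). Median centring left these counts as they were. After quantile normalization 2 were higher and 3 lower in NormMg-HFD than in NormMg-LFD mice (20% and 30%, against 18% and 20.3% of all genes). In LowMg-HFD against LowMg-LFD mice 0 then passed. Differences between the sets were not tested.

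Markers of cell types moved with the diets. Of 18 macrophage markers 16 were higher (88.9%, against 24.6% of all genes) and 1 lower in NormMg-HFD than in NormMg-LFD mice. In LowMg-HFD against NormMg-HFD mice 16 were lower (88.9%, against 12.9% of all genes). The summed level of the 18 was 945 to 1115 FPKM in NormMg-LFD, 729 to 1421 FPKM in LowMg-LFD, 3924 to 6404 FPKM in NormMg-HFD and 1166 to 3550 FPKM in LowMg-HFD mice. Of 12 adipocyte markers 8 were lower (66.7%, against 12.8% of all genes) and 1 higher in NormMg-HFD than in NormMg-LFD mice. With low Mg2+ on HFD 7 were higher (58.3%, against 5.58% of all genes). All 6 tested proliferation markers of 10 were higher in NormMg-HFD than in NormMg-LFD mice and all 6 were lower with low Mg2+ on HFD, with a summed level over the 10 of 45.9 to 57.1 FPKM in NormMg-LFD, 40.4 to 51.7 FPKM in LowMg-LFD, 119 to 190 FPKM in NormMg-HFD and 55.1 to 98.9 FPKM in LowMg-HFD mice. None of 10 lymphocyte markers reached the filter, and 1 of 10 brown or beige adipocyte markers did. With low Mg2+ on HFD 2 of 10 endothelial markers were higher (20%, against 5.58% of all genes) and 3 of 10 stromal markers lower (30%, against 12.9%). In NormMg-HFD against NormMg-LFD mice 2 endothelial markers were lower (20%, against 12.8%) and 4 stromal markers higher (40%, against 24.6%). These counts moved with the scaling. After either rescaling 4 endothelial markers were higher with low Mg2+ on HFD. In NormMg-HFD against NormMg-LFD mice 3 stromal markers were then higher and 1 lower. The stromal markers summed to 1117 to 1341 FPKM in NormMg-LFD, 789 to 1292 FPKM in LowMg-LFD, 1651 to 2237 FPKM in NormMg-HFD and 1039 to 1282 FPKM in LowMg-HFD mice. In LowMg-HFD against LowMg-LFD mice 12.4% of all genes were higher and 3.51% lower. There 10 of 18 macrophage (55.6%), 3 of 6 proliferation (50%), 3 of 10 stromal (30%) and 1 of 10 endothelial markers (10%) were higher. Of 12 adipocyte markers 3 were lower (25%) and 1 higher (8.33%). After median centring and quantile normalization 8 and 8 macrophage markers and 1 and 0 proliferation markers were higher. The part of these changes in cells in the calls of the members was not tested.

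Of the 78 genes, 33 share exon bases with another annotated gene (GENCODE M21, GRCm38) and 23 with another protein-coding gene. Mrps11 and Mrpl46, 1 gene of each subunit, lie on opposite strands and share 173 exon bases. They were at 16.5 and 11.3 FPKM on average, and neither passed the threshold in any contrast. For the members past the threshold that overlap another gene the shared part of the exons was 30.5% in Mrps18b (with an antisense gene), 19.9% in Mrps6, 9.35% in Mrps30, 6.13% in Mrps7, 5.81% in Mrpl9 and 4.85% in Mrpl49, counting the largest overlap of each. The largest shares among all members were 88% in Mrpl53, 69.8% in Mrps25 and 63.4% in Mrps34. Values of such genes are less certain than those of genes that stand alone.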

How the data were processed

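RNA from eWAT of 19 mice was sequenced in 1 library per mouse. The deposited FPKM values were made by the authors with HISAT and Bowtie2 (GRCm38) and RSEM 1.2.31, and each is a gene's share of its library, so a large change in some genes moves all others. The deposited read counts per library and the percentages mapped, also from the authors, gave the depth, and no depth per gene was used. Members and gene lists were chosen with earlier results of these data known. Genes named after their values or overlaps were seen are Mrpl21, Mrpl14, Mrpl35, Mrpl51, Mrpl53, Mrps11, Mrpl46, Mrps25, Mrps34, Gatb and those given for a single outlying mouse. The others are the members past the threshold, the 5 highest and 5 lowest, 10 fixed members, those without overlap between the HFD groups, and the listed genes past the threshold. An identical copy of Mrps23 on a patch scaffold was counted once. Of 24237 genes, 8336 passed the filter (over 8 FPKM as group mean and in 4 or more mice of it) and were fitted as log2(FPKM + 1), all 4 groups together, with R 4.3.3 and limma 3.58.1 and its intensity trend. P-values were adjusted over all genes by Benjamini-Hochberg at 0.05 and set the difference between groups against the spread between mice. The paper states that several mice shared a cage. The labels do not name cages, so no cage was in the fit. Other scalings, filters, pseudocounts, a replicate block and fits without each mouse were tried. Tables and figures were made with Python 3.11.15, numpy 2.4.6, pandas 2.3.3 and matplotlib 3.10.9.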

Additional observations from a re-analysis of the deposited data

Results flagged for a closer look

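In groups of 4 or 5 mice, a mouse was singled out where its gap to the nearest other value, divided by the range of the group, passed Dixon's 95% critical value. This was met in 20 of 312 groups of values, where about 1 in 20 (15.6) would be met by chance. Among the NormMg-LFD mice, Mrpl21 was low in replicate 2 (18.31 FPKM, others 19.47 to 19.63) and Mrpl42 in replicate 5 (42.73 FPKM, others 45.8 to 46.43), Mrps23 was high in replicate 2 (22.07 FPKM, others 15.44 to 16.21) and Mrps25 in replicate 5 (19.73 FPKM, others 13.92 to 14.5). Among the LowMg-LFD mice, replicate 3 was high for Mrpl4 (40.45 FPKM, others 33.04 to 35.04), Mrps12 (29.2 FPKM, others 25.76 to 26.6) and Mrps14 (49.02 FPKM, others 33.49 to 37.18), and replicate 5 was low for Mrpl43 (17.43 FPKM, others 20.53 to 21.64). Among the NormMg-HFD mice, replicate 2 was high for Mrpl18 (44.33 FPKM, others 31.39 to 33.07) and low for Mrps15 (23.35 FPKM, others 30.93 to 34.36). Replicate 4 of that group was low for Mrpl36 (18.53 FPKM, others 23.31 to 25.54) and high for Mrps10 (25.17 FPKM, others 17.32 to 18.83), and replicate 3 was high for Mrps11 (18.79 FPKM, others 15.95 to 16.57).

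Among the LowMg-HFD mice, replicate 3 was low for Mrpl41 (22.53 FPKM, others 30.36 to 34.01) and high for Mrpl50 (18.28 FPKM, others 15.77 to 16.38). Replicate 2 was high for Mrpl43 (26.26 FPKM, others 19.24 to 20.43) and low for Mrps27 (6.71 FPKM, others 8.95 to 9.79). Replicate 1 was low for Mrps16 (24.86 FPKM, others 29.95 to 30.68) and Mrps18a (23.95 FPKM, others 32.01 to 34.47), and replicate 5 was low for Mrps23 (15.46 FPKM, others 18.54 to 19.81). The low mouse did not decide the fall of Mrps16 in LowMg-HFD against LowMg-LFD mice, which was -0.39 on the log2 scale without it (adjusted p = 0.0286 by limma). The fall of Mrps15 in NormMg-HFD mice was no longer called without the mouse named here (-0.36, adjusted p = 0.0837 by limma).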

How the results depend on the processing

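The alternatives were 28 or 29 per result. LowMg-LFD against NormMg-LFD and the interaction gave 0 members in each of them. For LowMg-HFD against NormMg-HFD the count was 1 as reported, 0 with the filter at 1 FPKM, without a filter or without the intensity trend, and 0 to 2 when 1 mouse was left out. For NormMg-HFD against NormMg-LFD it was 7 as reported, 15 with median centring or quantile normalization, 5 without a filter and 6 to 9 with 1 mouse left out. For LowMg-HFD against LowMg-LFD it was 4 as reported, 7 with either rescaling, 2 with only the groups compared (where Mrps5 and Mrpl9 had adjusted p = 0.0603 and 0.0585 by limma) and 3 to 6 with 1 mouse left out. Beside the losses given above, Mrps15 and Mrps33 were not called without a filter (adjusted p = 0.0692 and 0.0579 by limma). The causes were not tested. Of the 12 calls, those of Mrpl38, Mrps35, Mrps30, Mrps18b, Mrps6 and Mrps16 were made in all 29 fits.

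The replicate numbers shared by groups do not pair the mice: 27 same-numbered pairs correlated between -0.18 and 0.34, with 5 over 0.1. With the numbers as a block, 2 members were called in LowMg-HFD against NormMg-HFD (Mrps7, and Mrps25 at -0.32), 8 in NormMg-HFD against NormMg-LFD and 4 in LowMg-HFD against LowMg-LFD.

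Between LowMg-HFD and NormMg-HFD mice the sign of small differences turned when 1 mouse was left out, with log2 ranges of -0.025 to 0.067 for Mrpl10, -0.024 to 0.113 for Mrps12, -0.041 to 0.077 for Mrps18b, -0.191 to 0.015 for Mrps18c and -0.057 to 0.149 for Mrps36. Mrps36 was at -0.023 with LowMg-HFD replicate 4 left out and genes kept by log2(FPKM + 1) over 3.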
